A study of Mus musculus with 12 samples.

Results

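The genes described here encode the nuclear subunits of the mitochondrial respiratory chain and of ATP synthase in the mouse heart. They were taken by name, as every probe set with a single gene symbol beginning with Nduf, Sdh followed by A to D, Uqcr, Cox4 to Cox8 or Atp5. That gave 170 of the 45037 probe sets on the array and 82 genes, of the 14052 genes tested. The rule uses names and no measured value. By role the 82 genes divided into 35 of complex I, 4 of complex II, 7 of complex III, 16 of complex IV and 15 of ATP synthase. Another 5 carried such a name without being subunits of these complexes in the strict sense. They were Ndufaf1 and Ndufa12l (now Ndufaf2), which assist the assembly of complex I, Cox7a2l, which joins complexes III and IV into supercomplexes, Atp5s (now Dmac2l) and Cox4nb (now Emc8).

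The study asked how ischemic preconditioning (IP), a series of brief occlusions of the heart's blood supply, changes the heart's transcripts with and without the adenosine A2B receptor. There were 4 groups of 3 arrays: A2BAR-/- hearts after IP, A2BAR-/- control hearts, wild-type hearts after IP and wild-type control hearts. All came from male mice of 12 weeks on the BL6/C57 background. IP was 4 rounds of 5 min of ischemia, each followed by 5 min of flow, and a final 2 h of reperfusion. The tissue was the area at risk of the left ventricle in every group. Controls are called sham operated in the protocol and untreated elsewhere in the labels. The wild-type mice are described as bought and also as littermates of the A2BAR-/- mice, which were bred in house, so genotype and place of breeding may not be told apart. Nothing states that arrays of a group came from separate animals, so p-values measure the spread between these arrays, which may be technical.

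Complex I (NADH dehydrogenase) and complex II (succinate dehydrogenase) pass electrons from fuel oxidation to coenzyme Q. Complex III hands them to cytochrome c and complex IV (cytochrome c oxidase) to oxygen. Complexes I, III and IV pump protons, and ATP synthase uses the returning protons to make ATP. The beating heart depends on this chain for nearly all of its ATP, and its cardiomyocytes are packed with mitochondria. Several complex IV subunits exist as a heart and skeletal muscle form and a form used in most other tissues.

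Promoter sequences are shown for 3 genes: Ndufaf1 and Cox8a, which fell after IP in wild-type hearts under all 4 array scalings described below, and Atp5g3, which had the smallest p among the members that rose on the deposited scale. Each is the 250 bases before the RefSeq transcription start on build GRCm38.p6, written 5′ to 3′ along the gene's strand. Capitals mark a searched motif. The regions are chr2:119662835-119663084 for Ndufaf1, chr19:7217617-7217866 for Cox8a and chr2:73911327-73911576 for Atp5g3, all on the minus strand.
Ndufaf1: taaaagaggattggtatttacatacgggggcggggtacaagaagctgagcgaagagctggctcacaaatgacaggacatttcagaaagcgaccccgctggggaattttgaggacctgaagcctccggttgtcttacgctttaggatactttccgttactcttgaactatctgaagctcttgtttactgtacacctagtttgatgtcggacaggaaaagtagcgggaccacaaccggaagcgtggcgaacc
Cox8a: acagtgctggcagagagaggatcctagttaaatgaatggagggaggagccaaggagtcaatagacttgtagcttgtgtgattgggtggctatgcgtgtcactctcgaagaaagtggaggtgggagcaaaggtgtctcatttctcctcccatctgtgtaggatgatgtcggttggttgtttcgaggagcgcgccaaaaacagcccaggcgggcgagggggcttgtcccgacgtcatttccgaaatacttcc
Atp5g3: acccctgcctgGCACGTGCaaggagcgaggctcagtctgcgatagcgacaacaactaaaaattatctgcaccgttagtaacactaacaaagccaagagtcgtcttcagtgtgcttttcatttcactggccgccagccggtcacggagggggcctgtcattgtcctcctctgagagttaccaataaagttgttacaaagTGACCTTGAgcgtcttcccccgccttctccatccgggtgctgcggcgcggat
The search used 5 short motifs on both strands: GCATGCGC for the core of the NRF1 site, AAGATGGCG for YY1, TCAAGGTCA for the estrogen-related receptors, TGACGTCA for CREB and ACGTGC for the HIF core. Windows ran over 300 bases, of which 250 lay before the start, and 67 of the 82 members had at least 1 such window. Matches of different motifs did not overlap in the members, while 6 pairs of matches of the same motif on opposite strands did, and each gene was counted once.
The Ndufaf1 and Cox8a windows printed here held none of these letters, from which nothing follows about the factors. Atp5g3 carried the estrogen-related receptor motif 52 bases before the start, on the opposite strand, and the HIF core on both strands, in overlapping matches that begin 239 and 237 bases before it. Sdhd, a membrane anchor of complex II that also fell, held the estrogen-related receptor motif 37 bases after its start. The NRF1 motif was found in 10 of the 67 members (14.9%) and in 824 of all 27025 genes with a promoter window (3.05%). Among these members were Cox6a1, 162 bases before the start, and Uqcrc1, 31 bases after it. YY1 letters were present in 7 members (10.4%) against 1.64% of all genes, CREB letters in 4 (5.97%) against 2.03%, and estrogen-related receptor letters in 2 (2.99%) against 0.466%. The HIF core was found in 4 members (5.97%) and in 6.68% of all genes. These are counts of letters, given with no test.

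Values are MAS5 signals, written below as log2(signal + 16) unless a signal is named. All 82 members passed the filter on low signal, and 71 of them had a value on all 12 arrays. The other 11, Ndufb7, Ndufs5, Ndufb3, Atp5e, Ndufa9, Atp5b, Cox7a2, Ndufa5, Ndufa2, Cox6a1 and Cox6a2, lie in a run of 1425 zeros on wild-type control array 3 and were fitted without it. Most members sat at the top of the signal scale. Mean signals ran up to 63734 for Uqcrb, 52174 for Atp5c1 and 50740 for Cox6b1, and the Uqcrb probe set was the highest of all probe sets on 12 of 12 arrays. At the other end Ndufc2 (78), Cox4i2 (103) and Cox6b2 (159) were near the floor, where the scatter between arrays is wide. The 71 members measured on all arrays held together 5.30% to 5.37% of the summed signal in A2BAR-/- IP arrays, 5.42% to 5.65% in A2BAR-/- control arrays, 5.59% to 5.80% in wild-type IP arrays and 5.32% to 5.66% in wild-type control arrays. All 12 cardiomyocyte markers on the list (Myh6, Tnnt2, Actc1 and others) passed the filter, with mean log2(signal + 16) from 14.07 for Ryr2 to 15.88 for Myh6, in keeping with the labelled tissue.

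The 3 wild-type IP arrays were brighter at the top of the scale than the other 9. The highest signal on an array was 58510 to 61105 in A2BAR-/- IP arrays and 60532 to 66670 in A2BAR-/- control arrays. It was 68751 to 71538 in wild-type IP arrays and 59392 to 66585 in wild-type control arrays. The summed signal was 35761072 to 36432444 and 35631386 to 36358928 in the A2BAR-/- groups, against 37287858 to 37455385 in wild-type IP and 35488398 to 36540277 in wild-type control arrays. The log2 ratio of 3′ to 5′ beta-actin control signals, a measure of RNA length, was 0.84 to 0.95 in A2BAR-/- IP, 0.89 to 1.40 in A2BAR-/- control, 1.22 to 1.39 in wild-type IP and 1.05 to 1.31 in wild-type control arrays. The part of array brightness and of RNA length in the results was not tested. The main results are given on the deposited scale, which was the main setting, and after quantile normalization, with median centring and cyclic loess as further scalings. The targeted receptor's own probe set, Adora2b, read 5.99 to 6.28 in A2BAR-/- IP, 5.11 to 6.30 in A2BAR-/- control, 7.42 to 7.80 in wild-type IP and 5.86 to 6.46 in wild-type control arrays. Its level thus separated the genotypes after IP and overlapped between them in control hearts. Where the probes lie relative to the deletion is not given, so this checks the labels only in part.

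**Figure D1:**
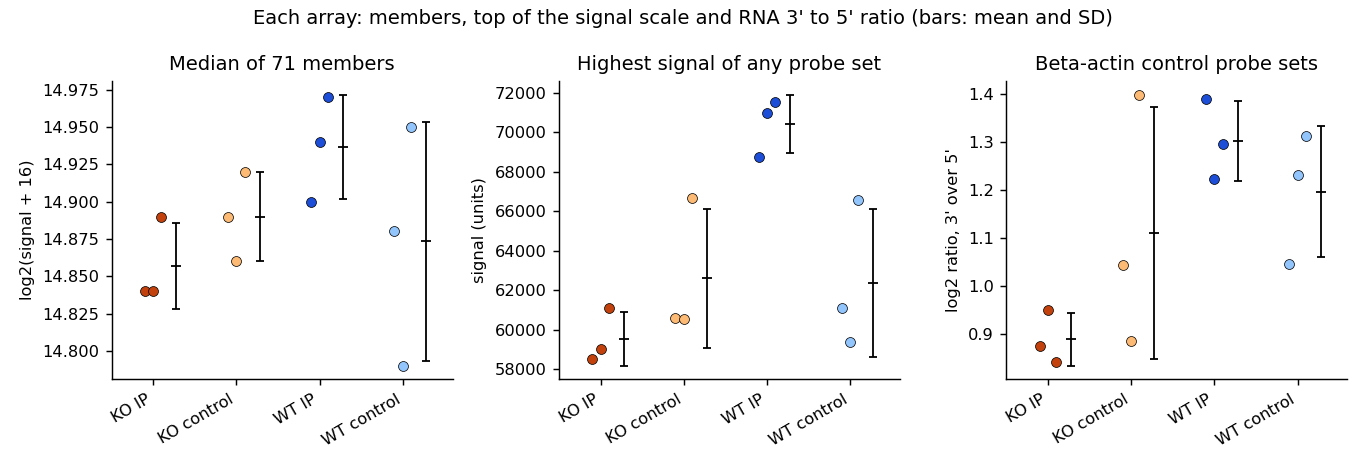
Each point is 1 array of the 4 groups, with mean and SD beside it. The panels show the median log2(signal + 16) of the 71 members measured on all arrays, the highest signal of any probe set in units, and the log2 ratio of 3′ to 5′ beta-actin control signal. The 3 wild-type IP arrays have the highest top signals, from 68751 to 71538.

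After IP in wild-type hearts, Ndufaf1 and Cox8a fell, whichever of the 4 scalings was used. Another 12 subunits were called higher on the deposited scale, and 0 of these 12 were called under any of the other 3 scalings. Ndufaf1 helps build the membrane arm of complex I, and Cox8a is the broadly expressed form of subunit VIII of complex IV. On bulk tissue, fewer cells of a type and less RNA per cell cannot be told apart. In total 12 members were higher and 2 lower on the deposited scale, beside 6.53% and 10% of all genes tested. The median change of the 82 members was 0.10 on the log2 scale, against -0.05 over all genes. After quantile normalization the counts were 0 higher and 12 lower, beside 10.7% of all genes lower, with a median of -0.04. Median centring left 3 lower beside 14.3% of all genes, and cyclic loess 8 lower beside 7.5%, with 0 higher in either. In the authors' deposited table, 0 of the 82 brightest member probe sets were decided higher in wild type and 2 lower. Of all 170 member probe sets 0 were higher and 5 lower, beside 12% of all probe sets in either direction. The deposited-scale total of 14 rested on single arrays. It was 5, 8 and 3 without wild-type IP arrays 1, 2 and 3, and 6 and 5 without wild-type control arrays 1 and 2, where 3 of the 5 were lower. The share of all genes called in those fits is not given here.

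Ndufaf1 read 12.16, 12.12 and 12.08 in A2BAR-/- IP hearts and 12.23, 12.31 and 12.15 in A2BAR-/- control hearts. In wild-type IP hearts it read 11.72, 11.95 and 11.97, against 12.20, 12.27 and 12.40 in wild-type control hearts. The 3 wild-type IP arrays were the lowest of the 12, and the wild-type groups did not overlap. The wild-type change was -0.41 (SE 0.08, n = 3 each), a level 0.752 times that of controls, with an adjusted p of 0.00443 in limma. After quantile normalization it was -0.46 (adjusted p = 0.00388). The call held in all 29 alternative settings, with changes from -0.51 to -0.33. The A2BAR-/- change was -0.11 (adjusted p = 0.460), and its arrays overlapped. The difference between the 2 genotypes in the IP change was 0.30 (95% interval 0.05 to 0.56, adjusted p = 0.579), which did not pass. In the authors' deposited table Ndufaf1 was also decided lower after IP in wild type, with a log2 difference of -0.43. The same table decided it higher in A2BAR-/- than in wild-type hearts after IP, by 0.30, where limma gave 0.24 with an adjusted p of 0.234.

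Cox8a read 12.36, 12.23 and 12.22 in A2BAR-/- IP hearts and 12.45, 12.32 and 12.47 in A2BAR-/- control hearts. The wild-type IP arrays read 12.22, 12.28 and 12.11, against 12.39, 12.45 and 12.46 in wild-type control hearts. All 3 wild-type IP values lay below all 3 wild-type control values, while the A2BAR-/- groups overlapped at their edges. The wild-type change was -0.23 (SE 0.07, adjusted p = 0.0442) on the deposited scale and -0.30 (adjusted p = 0.0197) after quantile normalization. The A2BAR-/- change was -0.14 (adjusted p = 0.235), and the difference between the genotypes was 0.09 (adjusted p = 0.871). The wild-type call was close to the threshold and held in 14 of 29 alternatives. Leaving out A2BAR-/- IP array 2 or 3, A2BAR-/- control array 1, wild-type IP array 1 or 3, or any wild-type control array brought the adjusted p to between 0.0511 and 0.155. A second, near-equal Cox8a probe set changed by -0.14 in wild type and -0.17 in A2BAR-/- hearts, neither past the threshold.

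With both genotypes averaged, 6 members passed the threshold after IP on the deposited scale: Ndufaf1, Cox8a, Cox7a2l, Sdhd and Ndufb3 lower and Atp5b higher, beside 17.6% and 8.50% of all genes. Under quantile normalization 12 were lower, beside 17% of all genes, and 0 higher. The first 4 were called lower in all 4 scalings. Averaged over the genotypes, Ndufaf1 changed by -0.26 (SE 0.06, adjusted p = 0.00484) and Cox8a by -0.19 (SE 0.05, adjusted p = 0.0154), and both calls held in all 28 alternatives. Only these 2 of the 6 held in every alternative run.

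Sdhd, which anchors succinate dehydrogenase in the inner membrane, read 13.81, 13.86 and 13.87 in A2BAR-/- IP hearts and 13.96, 14.02 and 13.94 in A2BAR-/- control hearts. It read 13.73, 13.81 and 13.78 in wild-type IP hearts, against 13.99, 13.85 and 13.85 in wild-type control hearts. IP arrays lay below control arrays without overlap in each genotype, by a small margin. The averaged change was -0.12 (SE 0.04, adjusted p = 0.0371), with -0.13 in A2BAR-/- and -0.12 in wild-type hearts on their own (adjusted p = 0.172 and 0.184). The averaged call held in 16 of 28 alternatives and was lost without A2BAR-/- IP array 1, 2 or 3, A2BAR-/- control array 1 or 2, wild-type IP array 1 or 3, or wild-type control array 1, with an adjusted p up to 0.0884. The authors' deposited table decided Sdhd lower in wild type after IP, with a log2 difference of -0.23. A second, dimmer Sdhd probe set changed by 0.05 in A2BAR-/- and -0.19 in wild-type hearts, neither past the threshold. The lower values in A2BAR-/- hearts thus rest on the brighter probe set.

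Cox7a2l, the supercomplex factor, also lay lower in every IP array than in every control array of its genotype. It read 13.20, 13.10 and 13.19 in A2BAR-/- IP hearts and 13.33, 13.20 and 13.33 in A2BAR-/- control hearts, and 13.06, 13.02 and 13.08 in wild-type IP hearts against 13.30, 13.13 and 13.29 in wild-type control hearts. The nearest A2BAR-/- values are equal when rounded as here. Its averaged change was -0.16 (SE 0.05, adjusted p = 0.0237), held in 20 of 28 alternatives. Leaving out A2BAR-/- IP array 2, A2BAR-/- control array 1 or 3, wild-type IP array 2, or wild-type control array 1 or 3 brought the adjusted p to between 0.0515 and 0.0626. Its other probe sets changed less, by -0.11 and -0.09 in A2BAR-/- hearts and -0.06 and -0.07 in wild-type hearts. Ndufb3, an accessory subunit of complex I, changed by -0.14 (adjusted p = 0.0474) and Atp5b, the catalytic beta subunit of ATP synthase, by 0.12 (adjusted p = 0.0359). Both were fitted without wild-type control array 3. The Ndufb3 call held in 11 and the Atp5b call in 14 of 28 alternatives. Without wild-type control array 1, for example, their adjusted p were 0.231 and 0.0925, and Atp5b was not called under any other scaling.

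**Figure D2:**
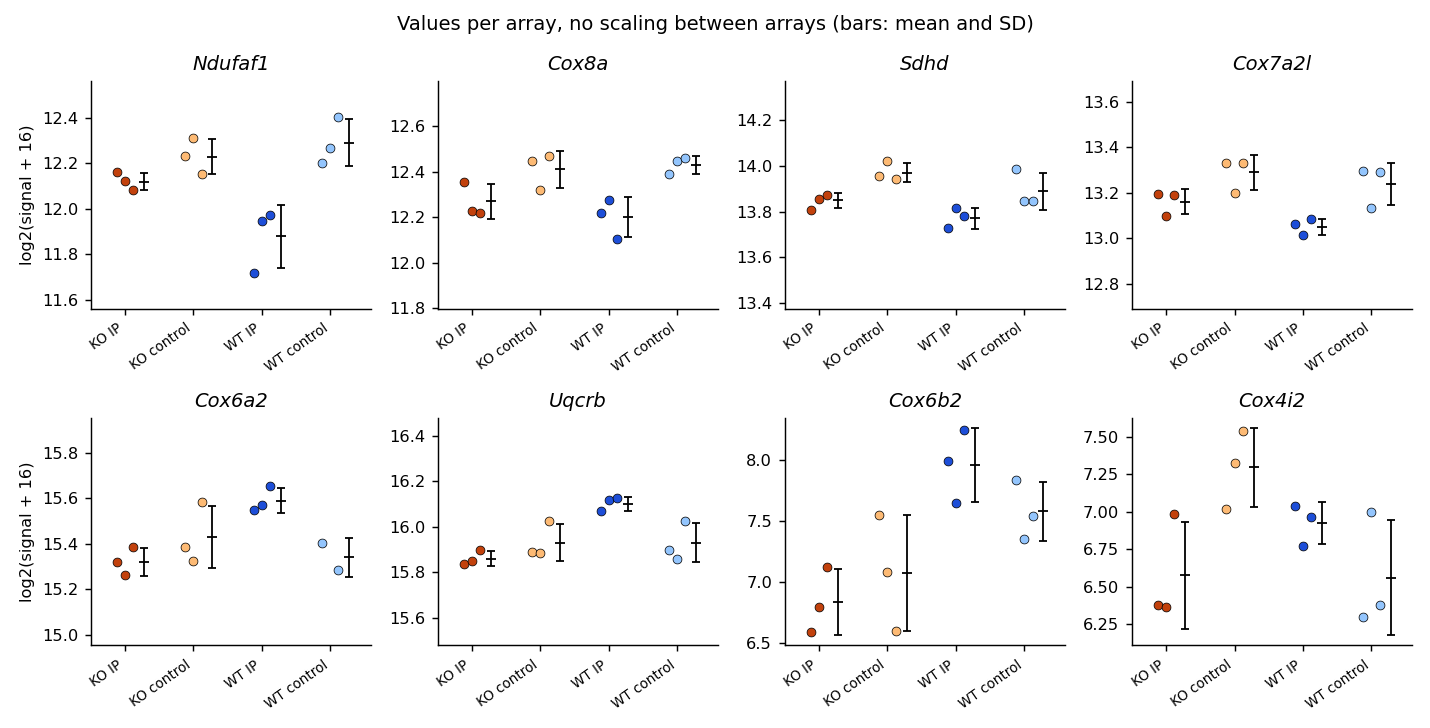
The log2(signal + 16) of 8 members on each of the 12 arrays, with mean and SD beside each group and an axis of its own in each panel. Ndufaf1, Cox8a, Sdhd and Cox7a2l have lower IP than control means in both genotypes. Cox6a2 and Uqcrb have their highest group mean in wild-type IP arrays on this scale, and Cox6b2 and Cox4i2 scatter widely at low signal.

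The 12 members called higher in wild-type IP hearts on the deposited scale were Cox6a2, Atp5g3, Cox5b, Cox7a2, Atp5c1, Ndufv1, Cox6c, Uqcrb, Cox6b1, Cox4i1, Atp5h and Atp5j2, with changes from 0.16 to 0.25. After quantile normalization the same 12 changes lay between -0.02 and 0.06 and none passed, and for Uqcrb, always the top rank, that scaling gives 0.00 by construction. Atp5g3 encodes a c subunit of the rotor of ATP synthase. It read 15.24, 15.29 and 15.26 in A2BAR-/- IP hearts and 15.34, 15.23 and 15.42 in A2BAR-/- control hearts, and 15.53, 15.54 and 15.56 in wild-type IP hearts against 15.27, 15.28 and 15.38 in wild-type control hearts. The wild-type IP arrays were the highest 3 and nearly identical. The wild-type change was 0.24 (SE 0.05, adjusted p = 0.00804), and 0.06 (adjusted p = 0.359) after quantile normalization, and that in A2BAR-/- hearts -0.06 (adjusted p = 0.504). Cox6a2, the heart and muscle form of a complex IV subunit, read 15.32, 15.26 and 15.39 in A2BAR-/- IP hearts and 15.39, 15.32 and 15.58 in A2BAR-/- control hearts. In wild type it read 15.55, 15.57 and 15.65 after IP, against 15.40 and 15.28 in the 2 control arrays that measured it. Its change of 0.25 (adjusted p = 0.0384) became 0.05 (adjusted p = 0.588) after quantile normalization.

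In wild type on the deposited scale the change was higher for brighter members. Across the 82 members, Spearman's correlation of the IP change with mean signal was 0.24 in A2BAR-/- and 0.52 in wild-type hearts on the deposited scale, and 0.50 and 0.36 after quantile normalization. The members share arrays, so this is a description over genes. The 1331 other genes in the top 10% of signal counted 158 higher and 101 lower in wild type on the deposited scale, with a median change of 0.01, and 85 higher and 184 lower after quantile normalization, with a median of -0.08. Of the 12 cardiomyocyte markers, 0 were called in A2BAR-/- hearts on the deposited scale, beside 12.1% of all genes. In wild-type hearts 6 were called higher, beside 6.53% of all genes. Their median changes were -0.03 and 0.20. After quantile normalization 0 of the 12 were called in either genotype, with medians of -0.01 and 0.00. Over all 14052 genes 650 were then higher and 814 lower in A2BAR-/- hearts, and 791 and 1497 in wild-type hearts. The summed signal of the 11 markers measured on all arrays was 485661 to 514751 in A2BAR-/- IP, 485184 to 530763 in A2BAR-/- control, 565320 to 580448 in wild-type IP and 479427 to 524785 in wild-type control arrays. The part of cardiomyocyte content in the members' values was not tested.

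**Figure D3:**
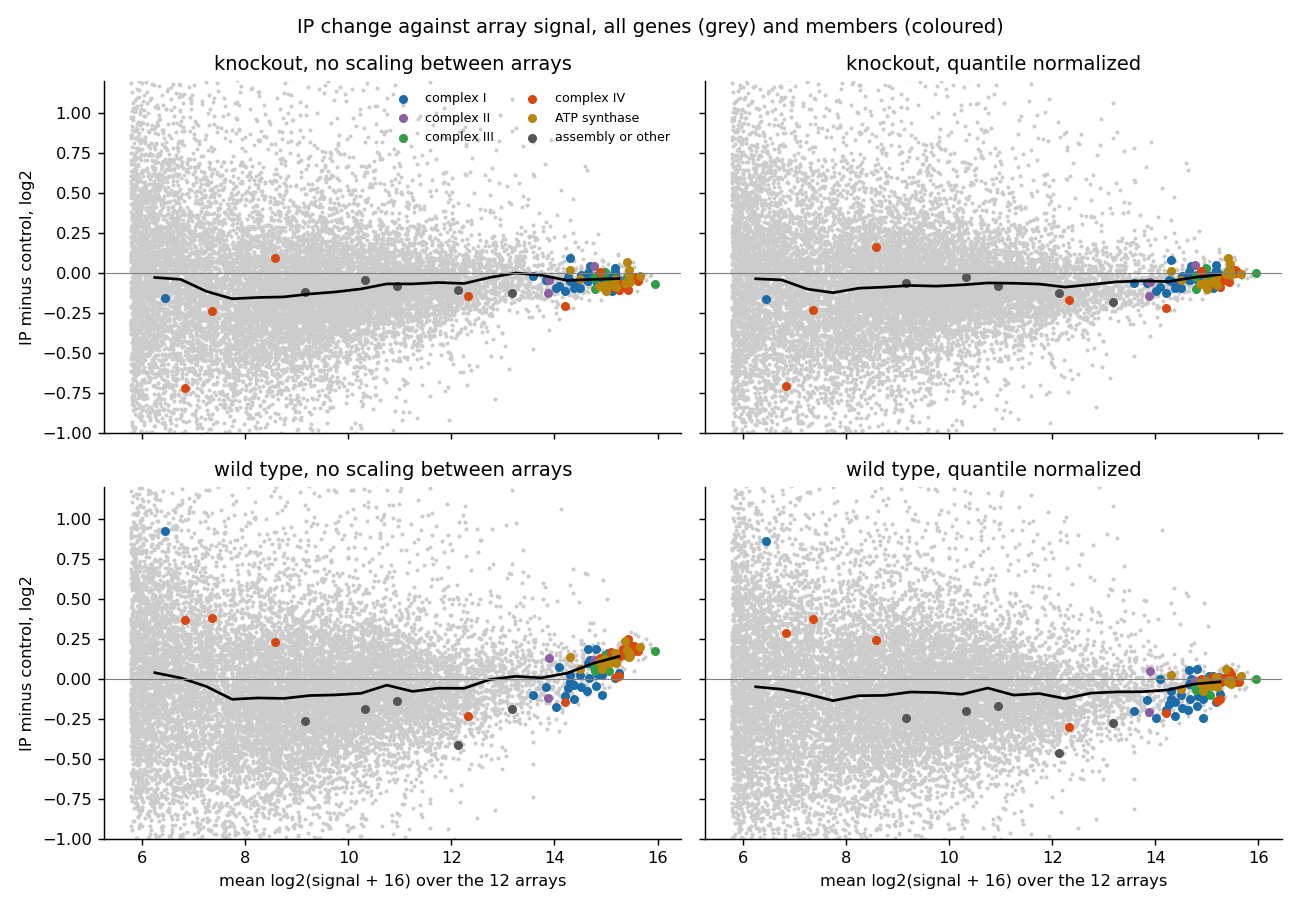
IP minus control change (log2) against mean log2(signal + 16) for all genes in grey and the 82 members in colour, on the deposited scale (left) and after quantile normalization (right), for A2BAR-/- (upper panels) and wild-type hearts (lower panels). The black line is the running median over all genes, and the vertical axis is limited to -1.0 to 1.2. The members at the bright end lie along a line that bends upward in the wild-type panel on the deposited scale and is flatter after quantile normalization.

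By complex, complex IV and ATP synthase had the highest medians in wild type on the deposited scale, and complex I the lowest of the 5 complexes. Complex I had 1 member higher and 0 lower, with a median of 0.03, beside 6.53% and 10% of all genes. After quantile normalization it had 8 lower and 0 higher, with a median of -0.10, beside 10.7% of all genes lower. In A2BAR-/- hearts 12.1% of all genes passed on the deposited scale, and 650 were higher and 814 lower of 14052 after quantile normalization. Under either scaling 0 of the 35 complex I members passed there. Among its core subunits, which carry the flavin and iron-sulfur clusters, the wild-type changes on the deposited scale were 0.03 for Ndufs1, -0.04 for Ndufs3, 0.03 for Ndufs7, 0.07 for Ndufs8, 0.19 for Ndufv1 and 0.05 for Ndufv2. Ndufv1, which binds NADH, read 14.68, 14.76 and 14.77 in A2BAR-/- IP hearts and 14.80, 14.71 and 14.82 in A2BAR-/- control hearts, and 14.94, 14.87 and 15.02 in wild-type IP hearts against 14.76, 14.70 and 14.81 in wild-type control hearts. Its change passed on the deposited scale (adjusted p = 0.0317) and was 0.06 (adjusted p = 0.377) after quantile normalization. Under quantile normalization the members called lower were Ndufs3 (-0.15, adjusted p = 0.0397) of the core and the accessory subunits Ndufb10 (-0.25), Ndufb3 (-0.24), Ndufs5 (-0.23), Ndufs4 (-0.20), Ndufa6 (-0.19), Ndufa8 (-0.19) and Ndufb5 (-0.17). On the deposited scale these 8 changed by -0.18 to -0.04 and none passed.

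Complex II had 0 members past the threshold on the deposited scale in either genotype, and 1 lower in wild type, Sdhd (-0.21, adjusted p = 0.0120), after quantile normalization. Over all genes, for this and the next complex, 12.1% were called in A2BAR-/- hearts on the deposited scale. In wild type 6.53% were higher and 10% lower on that scale. After quantile normalization 791 of 14052 genes were higher and 1497 lower in wild type. Sdha, the flavoprotein, changed by 0.04 in A2BAR-/- and 0.12 in wild-type hearts, Sdhb, the iron-sulfur subunit, by -0.05 and 0.16, and Sdhc, an anchor like Sdhd, by -0.05 and 0.13. Sdhd, at -0.13 and -0.12, was thus the lowest of the 4 in each genotype. In complex III, where Uqcrb was the single member called higher in wild type on the deposited scale, changes ran from -0.10 to 0.00 in A2BAR-/- hearts and from 0.05 to 0.18 in wild-type hearts. After quantile normalization the complex III range in wild type was -0.10 to 0.00 and 0 passed. Uqcrc1 and Uqcrc2, the large core proteins, changed by 0.00 and -0.03 in A2BAR-/- hearts and by 0.15 and 0.14 in wild-type hearts. Uqcrfs1, the Rieske iron-sulfur protein, changed by -0.01 and 0.06.

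ATP synthase had 4 of 15 members higher in wild type on the deposited scale, beside 6.53% of all genes. All 15 changes were positive, from 0.06 to 0.24. After quantile normalization 0 passed and 11 of 15 changes were negative, from -0.08 to 0.06. In A2BAR-/- hearts 0 passed under either scaling, beside 12.1% of all genes on the deposited scale. Over all 14052 genes after quantile normalization, 650 were higher and 814 lower in A2BAR-/- hearts, and 791 and 1497 in wild type. Of the catalytic head, Atp5a1 changed by -0.06 in A2BAR-/- and 0.14 in wild-type hearts, Atp5b by 0.07 and 0.18, Atp5c1 by -0.02 and 0.20 and Atp5d by -0.12 and 0.10. The genes Atp5g1, Atp5g2 and Atp5g3 encode the same mature c subunit. On the deposited scale they changed by -0.09, 0.02 and -0.06 in A2BAR-/- hearts and by 0.10, 0.14 and 0.24 in wild-type hearts.

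**Figure D4:**
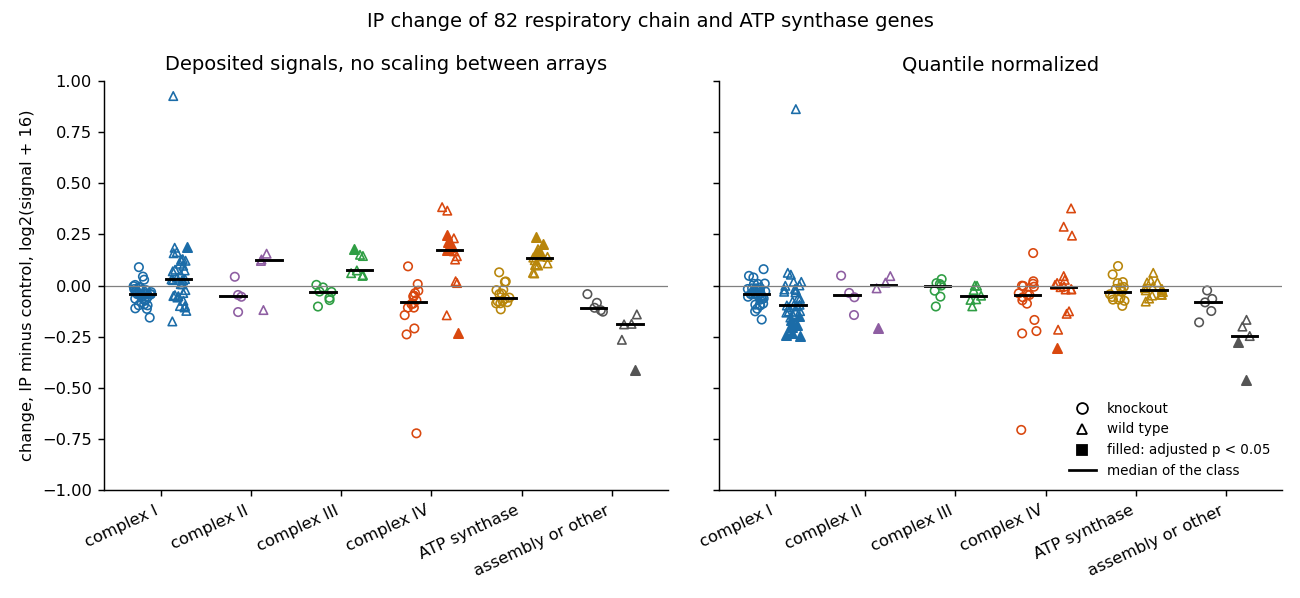
The IP minus control change in log2(signal + 16) of all 82 members by complex, for A2BAR-/- (circles) and wild type (triangles), on the deposited scale (left) and after quantile normalization (right). Filled symbols passed limma's threshold and bars are class medians. Of the filled wild-type symbols on the left, 12 lie above 0 and 2 below, and on the right all 12 lie below 0.

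In complex IV, 6 of 16 members were called higher and 1 lower in wild type on the deposited scale, beside 6.53% and 10% of all genes. After quantile normalization 0 were higher and 1, Cox8a, was lower, beside 10.7% of all genes lower. Cox4i1 changed by -0.04 in A2BAR-/- and 0.17 in wild-type hearts, Cox5a by -0.07 and 0.14, Cox5b by -0.05 and 0.21, and Ndufa4, an accessory subunit once assigned to complex I, by 0.01 and 0.13. Cox6a1, the form of Cox6a found in most tissues, read 14.27, 14.17 and 14.02 in A2BAR-/- IP hearts and 14.29, 14.34 and 14.45 in A2BAR-/- control hearts. It read 13.98, 14.19 and 14.14 in wild-type IP hearts, against 14.10 and 14.41 in the wild-type control arrays that measured it. Its changes of -0.21 and -0.15 did not pass (adjusted p = 0.151 and 0.359).

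The balance of isoforms was compared as a log2 ratio within each array, IP against control over both genotypes, in 4 pairs with exact two-sided permutation tests. All but the Cox4i2 pair set a heart form over a general form. The comparison was added after the data were seen, so its p-values serve as description. Cox6a2 over Cox6a1 was higher after IP by 0.25 (SD 0.21 for 6 IP and 0.16 for 5 control arrays, exact permutation p = 0.0628, adjusted over the 4 pairs 0.199), with 0.10 in A2BAR-/- and 0.39 in wild-type hearts. Cox8b over Cox8a was higher by 0.15 (exact permutation p = 0.0996, adjusted 0.199). Cox7a1 over Cox7a2 changed by -0.09 (exact permutation p = 0.195, adjusted 0.260). Cox4i2 over Cox4i1 changed by -0.25 (SD 0.237 for IP and 0.509 for control arrays, exact permutation p = 0.301). It went in opposite directions, -0.685 in A2BAR-/- and 0.192 in wild-type hearts, and Cox4i2 read near the floor. None of the 4 passed. The 6 IP and the control arrays mix genotypes, and the smallest p here rests on a pair with an array missing. Cox7a1 over Cox7a2 lacks an array too.

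In A2BAR-/- hearts 0 of the 82 members passed limma's threshold after IP, beside 12.1% of all genes, and 3 had an unadjusted p under 0.05: Cox4i2, Cox6a1 and Sdhd. Of all 14052 genes, 3711 had an unadjusted limma p under 0.05 in that comparison. The authors' deposited table decided 0 of the 82 brightest member probe sets and 3 of all 170, each lower (Cox4nb, Ndufab1 and Atp5g1, named after their values were seen), beside 10.3% of all probe sets. The members' median change was -0.05, against -0.08 for all genes, and 81 of the 82 changed by less than 0.3 in size. The 95% interval lay within ±0.5 for 78 members. Cox4i2, an isoform of Cox4 best known from lung, read 6.37, 6.36 and 6.99 in A2BAR-/- IP hearts and 7.02, 7.33 and 7.54 in A2BAR-/- control hearts. In wild type it read 7.04, 6.77 and 6.97 after IP, against 6.30, 6.998 and 6.38 in controls. The A2BAR-/- groups did not overlap by a narrow gap, and the change of -0.72 did not pass (SE 0.27, adjusted p = 0.0992). Of the members, 1 had all IP arrays above and 16 all IP arrays below the A2BAR-/- controls, beside 9.71% and 22.4% of all genes. The corresponding counts in wild type were 32 above and 6 below on the deposited scale, beside 12.7% and 20.8%, and 1 above and 27 below after quantile normalization, beside 10.6% and 22.5%.

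In wild type as well, 78 of the 82 members changed by less than 0.3 in size, and 77 had a 95% interval within ±0.5. The exceptions were Ndufaf1 and 3 members of low signal, Ndufc2 (0.93), Cox6b2 (0.38) and Cox4i2 (0.37), none of which passed. Ndufc2, a complex I accessory subunit read here by a dim probe set, had 5.45, 6.92 and 5.76 in wild-type control arrays, which shows the scatter at that level, and 7.07, 7.20 and 6.63 after IP.

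Between the genotypes no member passed. In control hearts 0 of 82 passed, beside 0.0356% of all genes, with 2 at an unadjusted p under 0.05, Cox4i2 and Ndufb6, and a median difference, A2BAR-/- minus wild type, of 0.01. Of the 14052 genes tested, 927 had an unadjusted limma p under 0.05 in that comparison. Cox4i2 was 0.74 higher (adjusted p = 0.667), Uqcrc1 0.10 higher (adjusted p = 0.799), and the differences of Ndufb6 and Cox6b2 were -0.12 and -0.51 (adjusted p = 0.754 and 0.799). After IP 0 passed, beside 0.114% of all genes, although 36 had an unadjusted p under 0.05 on the deposited scale and 14 after quantile normalization. Over all 14052 genes those counts were 1790 and 1612. The median difference was -0.12 on the deposited scale and 0.02 after quantile normalization, with a Spearman correlation with mean signal over the 82 members of -0.56 and -0.18. A total of 4 members had every A2BAR-/- IP array above and 46 every one below the wild-type IP arrays, beside 7.74% and 11.9% of all genes, and the counts were 20 and 8 after quantile normalization, beside 8.15% and 10.7%. Averaged over treatments, 0 members passed between the genotypes, beside 0.142% of all genes, with 24 at an unadjusted p under 0.05. The unadjusted count over all genes was 1607 of 14052.

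The smallest p after IP between genotypes belonged to Atp5g3 (-0.28, adjusted p = 0.0626), Uqcrb (-0.24, adjusted p = 0.0889), Cox6b1 (-0.24, adjusted p = 0.0889) and Cox7c (-0.25, adjusted p = 0.0958), which were -0.07, 0.00, -0.01 and -0.09 after quantile normalization. Cox6b2, known as a testis form of a complex IV subunit, stood apart from these in that scaling did not alter it. It read 6.59, 6.79 and 7.12 in A2BAR-/- IP hearts and 7.55, 7.08 and 6.59 in A2BAR-/- control hearts, and 7.99, 7.65 and 8.25 in wild-type IP hearts against 7.84, 7.35 and 7.54 in wild-type control hearts. The A2BAR-/- IP arrays all lay below the wild-type IP arrays, and the control groups overlapped. Its difference after IP was -1.13 (SE 0.26, adjusted p = 0.101), and -1.12 (adjusted p = 0.137) after quantile normalization, which did not pass. The authors' deposited table decided Cox6b2 lower in A2BAR-/- than in wild-type hearts after IP, with a log2 difference of -0.70.

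The IP change itself was not shown to differ between the genotypes for any member. In the interaction 0 of 82 passed, as did 0% of all genes, and 23 had an unadjusted p under 0.05 on the deposited scale against 6 after quantile normalization. Among all 14052 genes the unadjusted counts were 1107 and 1012. The median difference, A2BAR-/- minus wild type, was -0.12 on the deposited scale and 0.03 after quantile normalization. The smallest p belonged to Atp5g3 (-0.30, adjusted p = 0.399), Cox6c (-0.28), Cox6a2 (-0.35, adjusted p = 0.495) and Cox5b (-0.26).

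**Figure D5:**
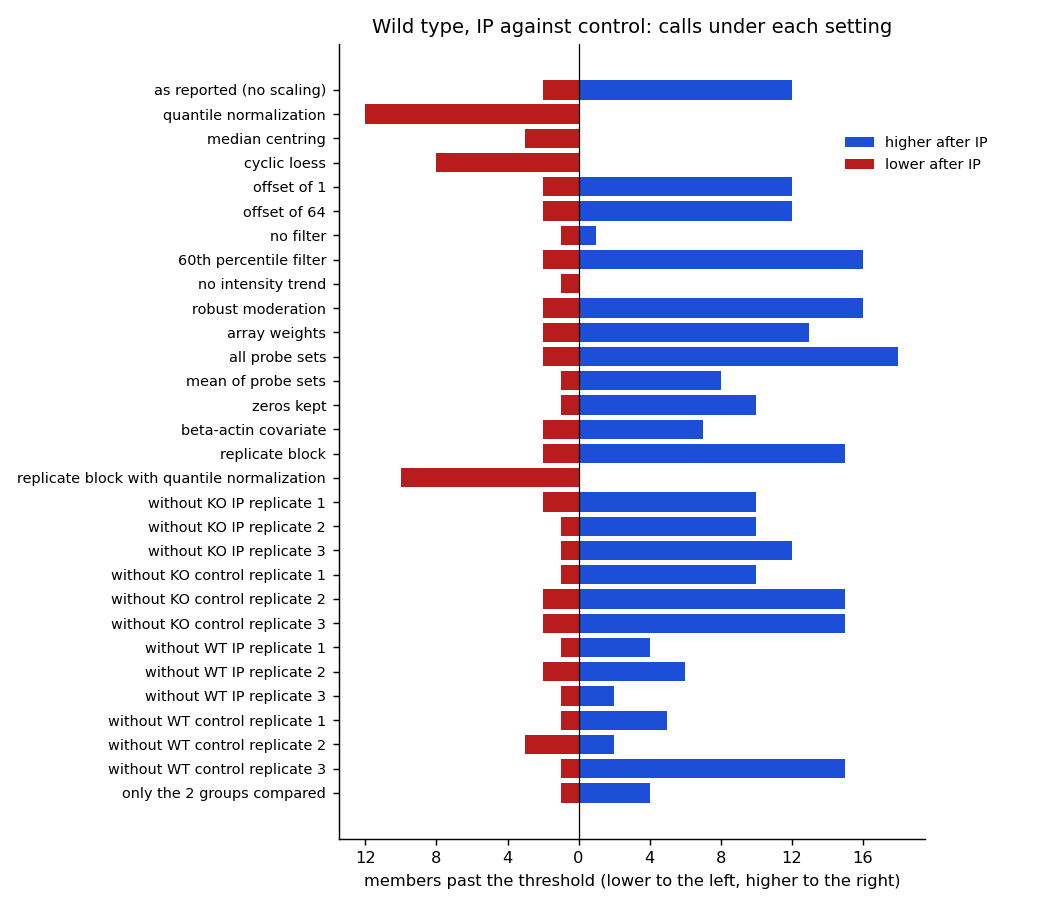
The number of members called lower (to the left) and higher (to the right) after IP in wild type, under the main setting and each alternative. The 12 higher calls on the deposited scale are absent after quantile normalization, median centring and cyclic loess, which give 12, 3 and 8 lower calls.

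The other genes of the pathway come from lists of known parts, of which those passing the filter were tested. For every list below, the share of all genes called in A2BAR-/- hearts was 12.1% in either direction on the deposited scale. In wild-type hearts it was 6.53% higher and 10% lower, and 10.7% lower after quantile normalization. The list counts are small and are given with no test. Among 21 assembly factors with other names, 0 were higher and 2 lower in A2BAR-/- hearts, with a median of -0.13, and 0 higher and 3 lower in wild-type hearts, with a median of -0.18. Tmem126b, which acts in the same complex I assembly complex as Ndufaf1, fell in both genotypes, with a change of -0.70 in A2BAR-/- hearts (adjusted p = 0.0338, and 0.0618 after quantile normalization) and -1.201 in wild-type hearts (adjusted p = 0.000979). Acad9 and Ecsit, further parts of that complex and named here after their values were seen, changed by -0.08 and -0.13 in A2BAR-/- hearts and by 0.01 and 0.03 in wild-type hearts. Cox11, which delivers copper to complex IV, and Bcs1l, which inserts the Rieske protein into complex III, fell in wild type by 0.50 (adjusted p = 0.00635) and 0.41 (adjusted p = 0.0147). Cox10, a maker of heme for complex IV, fell in A2BAR-/- hearts by 0.45 (adjusted p = 0.00835) and changed by -0.29 in wild type (adjusted p = 0.0628). The directions of Tmem126b, Cox11, Bcs1l and Cox10 were the same after quantile normalization.

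Of 10 other chain components and accessory proteins, such as cytochromes c and c1, 1 was lower in A2BAR-/- hearts and 0 passed in wild-type hearts on the deposited scale, with 3 lower in wild type after quantile normalization. Higd1a, a hypoxia-inducible protein of the inner membrane, fell in A2BAR-/- hearts (-0.36, adjusted p = 0.0252) and had a change of -0.28 in wild type (adjusted p = 0.0923). Cytochrome c1 (Cyc1) changed by 0.02 and 0.17, neither past the threshold. Of 17 genes of electron entry and coenzyme Q synthesis, 0 passed in A2BAR-/- hearts, and 1 was higher and 2 lower in wild-type hearts. Coq10b, a coenzyme Q binding protein, rose by 0.81 in wild type (adjusted p = 0.00500), and the coenzyme Q synthesis enzymes Coq3 (-0.36, adjusted p = 0.0200) and Pdss1 (-0.42, adjusted p = 0.0487) fell. Gpd2, the mitochondrial glycerol phosphate dehydrogenase, changed by 0.26 in A2BAR-/- hearts (adjusted p = 0.103).

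Of 9 carriers and channels for nucleotides, phosphate and protons, 1 was higher in A2BAR-/- hearts, and 1 was higher and 1 lower in wild-type hearts. Ucp2, an inner membrane carrier of the uncoupling protein family, rose by 0.67 (adjusted p = 0.0237) and 1.17 (adjusted p = 0.000509), and Slc25a5, an ADP and ATP exchanger, fell in wild type (-0.28, adjusted p = 0.0163). In the tricarboxylic acid cycle and pyruvate dehydrogenase, 0 of 17 passed in A2BAR-/- hearts, and 3 were higher and 1 lower in wild-type hearts. Idh2 (0.35, adjusted p = 0.00441) rose and Dlat (-0.28, adjusted p = 0.0359) fell in wild type, both also after quantile normalization. Mdh2 (0.23) passed on the deposited scale, and after quantile normalization was at 0.04 and did not.

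A further list held 20 transcriptional regulators of the respiratory chain, some of which, such as Tfam, act on mitochondrial DNA. Of these, 2 were higher and 5 lower in A2BAR-/- hearts, beside 12.1% of all genes in either direction. In wild-type hearts 4 were higher and 6 lower, beside 6.53% and 10% of all genes. Ppargc1a, the PGC-1 alpha coactivator that drives mitochondrial genes, rose by 0.90 in A2BAR-/- (adjusted p = 0.000186) and 1.34 in wild-type hearts (adjusted p = 5.02e-06), and Hif1a by 0.80 (adjusted p = 0.00148) and 0.50 (adjusted p = 0.0222). Pprc1, a relative of Ppargc1a, rose by 0.71 in wild type (adjusted p = 0.00977). Ppargc1b, another relative, fell by 0.92 (adjusted p = 0.00273) in A2BAR-/- and 0.54 (adjusted p = 0.0459) in wild-type hearts. Tfam, which packs mitochondrial DNA, and Gabpa, the DNA-binding part of NRF2, fell in wild type by 0.48 (adjusted p = 0.00427) and 0.47 (adjusted p = 0.00811). Ppara, a receptor of fatty acid oxidation genes, fell in A2BAR-/- hearts by 0.56 (adjusted p = 0.0281). These named regulators kept their direction and their call after quantile normalization.

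Cell type markers moved with IP too. Their counts stand beside 12.1% of all genes called in either direction in A2BAR-/- hearts. In wild-type hearts the shares were 6.53% higher and 10% lower. Of 5 neutrophil markers tested, 3 rose in A2BAR-/- and 5 in wild-type hearts, and the 4 of them measured on all arrays had a summed signal of 6664 to 14446 in A2BAR-/- IP, 1147 to 1984 in A2BAR-/- control and 7607 to 22428 in wild-type IP arrays. Their sum was 704, 734 and 8212 in wild-type control arrays, where array 3 stood apart at the level of the IP arrays. Without that array 15 members were called higher and 1, Ndufaf1, lower after IP in wild type on the deposited scale. The share of all genes called without it is not given here. Of 7 endothelial markers, 3 fell in A2BAR-/- and 4 in wild-type hearts, with sums of 9671 to 10379, 11132 to 14485, 8687 to 9493 and 12227 to 14812 in the same order of groups. Among 6 fibroblast markers 0 and 1 fell, among 6 mural markers 1 and 0 fell, among 5 macrophage markers 1 and 0 rose, and among 4 erythroid markers 0 and 1 rose, in A2BAR-/- and wild-type hearts. None of the 2 atrial, 2 adipocyte or 4 brown adipocyte markers tested passed, and the last list holds Cox8b and Cox7a1, which are members here. The part of these cells in the subunit values was not tested.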

How the data were processed

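Total RNA of heart tissue was hybridised to 12 1-colour Affymetrix arrays. The authors deposited MAS5 signal intensities on a linear scale, per the submitters' processing notes. Their version and scaling target are not stated. The authors also deposited log2 differences, p-values of an F test and scores of -1, 0 or 1 for each decision, per the file headers, with software and threshold not stated there. The values were analysed as log2(signal + 16) with no further scaling. A run of 1425 zeros on wild-type control array 3, where the other arrays had a median signal of 639, was set to missing. Leaving out 64 control probe sets gave 45037, of which the 24978 with 1 symbol and a mean over the 40th percentile were tested. The brightest probe set stood for each symbol, which gave 14052 genes. A probe set with several symbols (1232) or none (3668) was not named. limma 3.58.1 in R 4.3.3 fitted the 4 group means with 8 residual degrees of freedom and an intensity trend, with Benjamini-Hochberg adjustment over all genes at 0.05. Groups came from the sample titles. The pipeline was tested on simulated data. Alternatives were other scalings, filters, probe set rules, weights, blocks and leaving out each array, with beta-actin as a covariate. The number of arrays limits the precision. Promoters came from RefSeq.

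The members and gene lists were chosen with earlier results of these data known. Named members were the up to 10 most changed each way past the threshold in a comparison, or else the 4 with the smallest p, the tissue isoforms, the core subunits and the 3 brightest and 3 dimmest. From other lists up to 4 called genes, or else the 2 with the smallest p, were named. Some genes that this rule names are not reported here.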

Additional observations from a re-analysis of the deposited data

How the results depend on the processing

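The number of arrays and the brightness of the wild-type IP arrays limit these results, and the cause of each change below was not tested unless the setting itself shows it. The 14 members called after IP in wild type became 12 with quantile normalization, 3 with median centring, 8 with cyclic loess, 2 with no filter, 1 with no intensity trend, 9 with the mean of probe sets, 9 with beta-actin as a covariate, 5 with only the 2 groups fitted and 3 to 17 with 1 array left out (5, mostly lower, without wild-type control array 2). Over all genes, 918 were higher and 1409 lower as reported, and 791 and 1497 with quantile normalization. Median centring gave 655 and 2013, and cyclic loess 985 and 1054. For the other settings and comparisons in this paragraph the share over all genes is not given. A change in those counts is therefore not read as a change in the members alone. The median change of the 82 members, 0.0977, became -0.0442 with quantile normalization, 0.00768 with median centring and -0.00312 with cyclic loess. It was -0.0642 in the authors' deposited table and 0.053 to 0.126 with 1 array left out. In A2BAR-/- hearts the count stayed 0 to 0 with 1 array left out, and the median was -0.0692 to -0.0265. Between genotypes in control hearts the median was -0.0252 to 0.0313 with 1 array left out. Between genotypes after IP the count of 0 became 1 with the 60th percentile filter, 1 with robust fitting, 1 with array weights (Atp5g3 each time), 2 with all probe sets, 2 with the mean of probe sets, 6 with only the 2 groups and 0 to 1 with 1 array left out. The median of -0.123 became 0.0194 (quantile), -0.037 (median centring), -0.0515 (loess) and 0.0306 (authors' deposited table), and was -0.132 to -0.106 with 1 array left out. The interaction median of -0.119 became 0.0251 (quantile), -0.0393 (median centring), -0.0537 (loess) and 0.0401 (authors' deposited table), and was -0.148 to -0.0929 with 1 array left out. With the genotypes averaged, the count of 6 became 12 (quantile), 12 (loess), 3 (no filter), 3 (no trend), 12 (all probe sets) and 2 to 8 with 1 array left out. Its median of 0.0177 became -0.0411 (quantile) and -0.0465 (loess), and was -0.00202 to 0.0371 with 1 array left out. The genotype difference averaged over treatments, with a median of -0.052, became 0.00384 (quantile), and was -0.0692 to -0.0381 with 1 array left out. Of the wild-type changes, Atp5h (-0.00694), Cox4i1 (-0.0175), Cox6b1 (-0.0184) and Cox7a2 (-0.00744) were negative after quantile normalization, and Atp5j2 (-0.053), Cox6b1 (-0.0252) and Uqcrb (-0.0939) with the mean of probe sets. Yet each tested probe set rose on its own in wild type for Cox6b1 (0.176 and 0.117) and Uqcrb (0.177 and 0.0225). That setting averages whichever probe sets have a value on an array, so a missing value can shift the mean of that array. These Cox6b1 and Uqcrb values are therefore not read as falls. The averaged Ndufb3 change became 1.55 with the run of zeros kept. Of the named members' values under alternatives, 848 kept direction and side of the threshold, 197 were no longer past it, 59 newly passed and 12 reversed. Arrays with the same replicate number did not deviate together (18 pairs, r from -0.0549 to 0.0758, and 5 of 12 arrays correlated best with their own number), so the numbers were not taken to pair arrays. With the replicate number as a block, 17 members were called in wild type. With the replicate block and quantile normalization 10 were called, and the medians were -0.0442 in wild type, 0.0194 between genotypes after IP, 0.0251 for the interaction, -0.0386 for the averaged IP change (11 called) and 0.0012 for the averaged genotype difference, with Cox7a2 at -0.00506.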
